A study of Mus musculus with 6 samples.

Results

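Glucocorticoid-induced genes are genes whose transcription is switched on when a glucocorticoid hormone such as corticosterone occupies its receptor. The 8 described here are Tsc22d3, Sgk1, Klf9, Per1, Pdk4, Errfi1, Fkbp5 and Lcn2, out of 18372 genes tested and 19321 genes named on the array. They were selected on the measured values themselves: Tsc22d3 was lower in all 3 aged arrays, and the other 7 were added as genes known to respond to the same hormone. The aged against young values of the 8 genes are therefore a description and carry no test. The differences between cell types were not part of that rule and were tested. The 8 genes and the gene lists were nonetheless chosen with earlier results of these data known.

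Cells were sorted from hind limb muscle of C57BL/6 mice, and each of 6 one-colour arrays held 1 cell type at 1 age. The aged mice were 24 to 28 months old and the young mice 8 to 10 weeks old. The cell types were PDGFRa+ mesenchymal progenitors, the interstitial cells that can form fibroblasts and adipocytes, satellite cells, the stem cells that rebuild muscle fibres, and CD31+ or CD45+ cells, a mixture of endothelial and blood-derived cells. Each array held cells pooled over repeated sorts, so animals cannot be told apart, and no group was replicated. No group received a hormone or a drug, and hormone levels and the hour of sampling are not given in the sources used here. Values below are the linear intensities deposited by the authors, in which the median probe of every array is 25, and differences are on the log2 scale after normalisation, with aged minus young for age.

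Glucocorticoids are released from the adrenal gland with a daily rhythm and in response to stress. In the cell they bind the glucocorticoid receptor, which leaves its chaperone complex, enters the nucleus and binds response elements made of a pair of inverted arms. Some of its targets dampen inflammation, others restrain growth factor signalling or shift fuel use, and several feed back on the receptor or on the circadian clock. In skeletal muscle an excess of the hormone is known for fibre wasting, and Tsc22d3, Klf9, Pdk4 and Fkbp5 are among the genes it induces there.

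The array sequences are not given in the sources used here, so the letters shown are promoters, in which the response element of the receptor can be sought. RefSeq (GRCm38.p6) lists 17 transcription start sites for the 8 genes, each with a window of 250 bases before and 50 after the start, and 3 of them are shown up to the start, 5′ to 3′ on the strand of the gene. Capitals mark the motif named for that start. The Tsc22d3 start, on the minus strand, has the shown bases at chrX:140600523-140600772 and holds 1 arm of the element 185 bases before the start. The Sgk1 start, on the plus strand at chr10:21993640-21993889, was the single one of the 17 with the full element, 188 bases before the start. The Per1 start, on the plus strand at chr11:69098699-69098948, holds an E-box, the site used by the clock factors, 166 bases before the start.
Tsc22d3: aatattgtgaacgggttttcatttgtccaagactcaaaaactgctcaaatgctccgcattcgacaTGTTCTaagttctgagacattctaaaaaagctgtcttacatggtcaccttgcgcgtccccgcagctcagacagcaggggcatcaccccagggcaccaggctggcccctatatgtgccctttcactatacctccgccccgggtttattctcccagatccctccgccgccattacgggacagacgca
Sgk1: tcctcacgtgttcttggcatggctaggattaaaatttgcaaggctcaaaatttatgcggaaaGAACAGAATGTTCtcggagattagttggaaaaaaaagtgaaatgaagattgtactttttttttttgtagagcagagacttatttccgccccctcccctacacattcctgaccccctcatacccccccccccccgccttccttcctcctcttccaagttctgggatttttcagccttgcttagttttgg
Per1: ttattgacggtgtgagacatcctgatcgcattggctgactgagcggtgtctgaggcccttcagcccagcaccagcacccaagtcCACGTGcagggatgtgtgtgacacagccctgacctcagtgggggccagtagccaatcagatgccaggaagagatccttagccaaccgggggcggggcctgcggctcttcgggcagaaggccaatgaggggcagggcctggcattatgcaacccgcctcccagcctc

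The full element was searched in relaxed form as GNACA, 3 bases, TGTNC, and it occurred in 0.475% of 32851 promoter windows. A single arm was searched as AGAACA on either strand. It occurred in 19.0% of windows and in 4 of the 17 starts, which belonged to Sgk1 and Tsc22d3. In the Sgk1 window the full element holds AGAACA on one side and its reverse complement on the other, so that start counts for both motifs. The E-box CACGTG occurred in 7.15% of windows and in 3 of the 17 starts, 1 each of Sgk1, Per1 and Fkbp5. These matches describe letters within short windows and are no measurement of binding.

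Tsc22d3 encodes GILZ, a leucine zipper protein that holds back inflammatory transcription factors. The platform annotation assigns its probe to a non-coding transcript of the gene, one of several RefSeq transcripts, and which isoforms the probe reads is not given in the sources used here. In PDGFRa+ cells its intensity was 1339.5 in aged and 3383.9 in young mice. In satellite cells it was 754.5 in aged and 1982.3 in young mice, and in CD31+ or CD45+ cells 1009.5 in aged and 2510.6 in young mice. All 3 aged arrays lay below all 3 young arrays, across cell types, and the aged intensity was 39.6% of the young one in PDGFRa+ cells, 38.1% in satellite cells and 40.2% in CD31+ or CD45+ cells. The log2 differences were -1.37, -1.21 and -1.31 in the same order of cell types, with a mean of -1.30 ± 0.08 (SD over 3 cell types). In these bulk samples, fewer cells that express the gene and less RNA per cell cannot be told apart.

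Among the 18372 genes after normalisation, Tsc22d3 had the lowest mean difference. It ranked 8 from the lowest in PDGFRa+ cells, 8 in satellite cells and 4 in CD31+ or CD45+ cells. On that scale it was the 1 gene at least 2-fold lower in aged arrays of all 3 cell types (0.00544% of the genes tested). By deposited intensity Nrep was also more than 2-fold lower in all 3. Nrep had 144.8 in aged and 680.1 in young PDGFRa+ cells and 219.8 in aged and 519.2 in young satellite cells. In CD31+ or CD45+ cells Nrep had 177.2 in aged and 388.4 in young. In order of level the arrays ran young PDGFRa+, young CD31+ or CD45+, young satellite, aged PDGFRa+, aged CD31+ or CD45+ and aged satellite. The order of the cell types was the same at both ages. With 1 array per group there is no replicate spread to set beside the gaps, and Tsc22d3 was chosen on these values. The gain slope in the scanner file headers was 0.233 or 0.234 on some arrays and 0.244 or 0.245 on the others. From it 2 scanner sets were inferred, and no label names them as sets or batches. The pairs of PDGFRa+ and of CD31+ or CD45+ cells each lay within 1 set, while the satellite pair spanned both.

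The mean difference of Tsc22d3 was -1.21 when each array was centred on its median. It was -0.18 when the local background around each spot was subtracted, with 0.05 in PDGFRa+ and 0.04 in satellite cells. That background followed the signal of its own spot, with correlations of the logs across spots of 0.965 to 0.982 on the 6 arrays. Subtracting it gave the positive control spots a median coefficient of variation of 30.7% to 53.7%, against 9.1% to 11.4% with the blank spots as background. With the local background, Sgk1 was higher in all 3 aged arrays (1.00 in PDGFRa+, 0.66 in satellite and 0.24 in CD31+ or CD45+ cells). Klf9 (0.44 and 0.26) and Errfi1 (0.70 and 0.87) were higher in aged PDGFRa+ and CD31+ or CD45+ cells, Per1 was higher in aged PDGFRa+ cells (0.16), and Pdk4 alone of the 8 stayed lower in all 3. Blank spots were used throughout for the values given here.

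**Figure D1:**
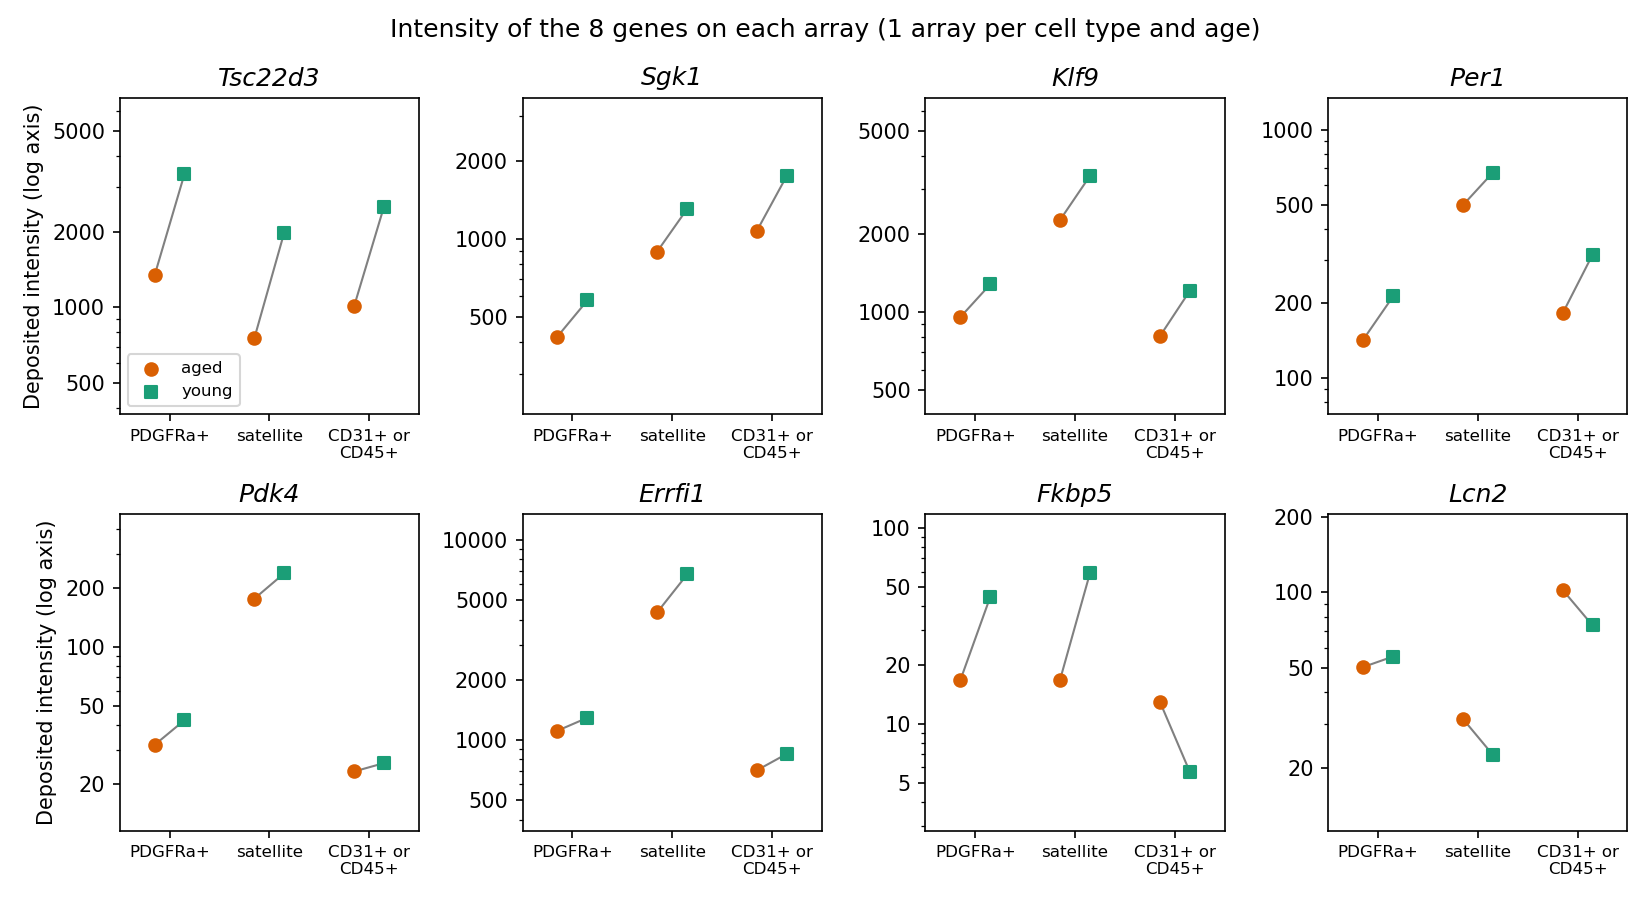
Deposited intensity (log axis) of the 8 genes on the 6 arrays, with aged (circle) left of young (square) in each cell type and 1 array per point. Tsc22d3 lay between 754.5 and 1339.5 on the aged arrays and between 1982.3 and 3383.9 on the young arrays, and Fkbp5 and Lcn2 did not move one way in all cell types.

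With the blank spots as background, Sgk1, Klf9 and Per1 were lower in the aged array of every cell type. Sgk1 encodes a kinase that controls ion channels and cell survival and is among the fastest genes to respond to the hormone. Its intensity was 419.0 in aged and 578.2 in young PDGFRa+ cells, 894.0 in aged and 1306.6 in young satellite cells, and 1076.7 in aged and 1757.7 in young CD31+ or CD45+ cells. The groups overlapped across cell types, since both PDGFRa+ arrays lay below all others, but each aged array lay below its young partner. The log2 differences were -0.31, -0.38 and -0.66.

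Klf9 encodes a zinc finger repressor that the receptor induces in many tissues. Its intensity was 957.0 in aged and 1281.7 in young PDGFRa+ cells, 2272.8 in aged and 3365.6 in young satellite cells, and 806.5 in aged and 1208.0 in young CD31+ or CD45+ cells. Both satellite arrays stood above the other 4, and within each pair the aged array was the lower one, by -0.29, -0.38 and -0.49 on the log2 scale. Another Klf9 probe had intensities of only 0.9 to 2.7, with a value above background on 5 arrays, and its differences of -0.06, -0.02 and -0.01 add little.

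Per1 encodes a clock protein that represses the circadian activators, and its transcription answers both to the clock and to glucocorticoids. Its intensity was 142.4 in aged and 213.0 in young PDGFRa+ cells, 497.2 in aged and 673.0 in young satellite cells, and 182.0 in aged and 313.9 in young CD31+ or CD45+ cells. As with Klf9, the satellite arrays were the 2 highest, and every aged array lay below its partner, by -0.34, -0.31 and -0.66. The differences of Sgk1 and Per1 were about as large in CD31+ or CD45+ cells as each other, and both were smaller in the other cell types, a contrast between single pairs that was not tested.

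Pdk4 and Errfi1 were also lower in each aged array, with smaller mean differences than Sgk1, Klf9 and Per1. Pdk4 encodes the kinase that shuts off pyruvate dehydrogenase and so spares glucose. Its intensity was 31.7 in aged and 42.4 in young PDGFRa+ cells, 176.5 in aged and 238.0 in young satellite cells, and 23.2 in aged and 25.6 in young CD31+ or CD45+ cells, with log2 differences of -0.13, -0.29 and -0.08. Errfi1 encodes an inhibitor of the EGF receptor. Its intensity was 1112.9 in aged and 1291.6 in young PDGFRa+ cells, 4344.8 in aged and 6717.8 in young satellite cells, and 705.8 in aged and 852.9 in young CD31+ or CD45+ cells, with log2 differences of -0.09, -0.35 and -0.21. For both genes the satellite pair was the brightest and, on the log2 scale, the farthest apart. By deposited intensity the Pdk4 pairs of PDGFRa+ and satellite cells were about equally far apart, with aged at 74.8% and 74.2% of young. The offset used on the log2 scale shrinks differences between dim values.

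Fkbp5 and Lcn2 differed from the rest. Fkbp5 encodes a co-chaperone that lowers the affinity of the receptor for its hormone, and it is widely used as a readout of receptor activity. Its intensity was 16.7 in aged and 44.5 in young PDGFRa+ cells and 16.8 in aged and 58.9 in young satellite cells, but 13 in aged and 5.7 in young CD31+ or CD45+ cells. It was thus lower in 2 aged arrays and higher in 1, with log2 differences of -0.55, -0.86 and 0.23, on a dim probe that lay below the array median of 25 on 4 of the 6 arrays. With the offset used on the log2 scale, such differences are understated.

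Lcn2 encodes lipocalin 2, an iron-siderophore binding protein of the acute phase that neutrophils store and that inflammatory signals also induce. Its intensity was 50.5 in aged and 55.6 in young PDGFRa+ cells, 31.4 in aged and 22.6 in young satellite cells, and 102.3 in aged and 73.9 in young CD31+ or CD45+ cells. The log2 differences were 0.03, 0.20 and 0.35, so after normalisation it was higher in all 3 aged arrays. In PDGFRa+ cells the sign turned with the scaling, to -0.14 with the deposited values. In CD31+ or CD45+ cells the summed intensity of 12 neutrophil markers was 4439.5 in aged and 2626.8 in young mice, with 9 of the 12 higher in aged, and their part in the Lcn2 value was not tested.

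Of the 8 genes, 6 were lower in the aged array of all 3 cell types, against 20.7% of the 18372 genes, and 1 was higher in all 3, against 14.3%. Nothing is read from the first count, because the choice of genes used this contrast. The mean difference over the cell types, with its SD, was -0.45 ± 0.19 for Sgk1, -0.44 ± 0.19 for Per1, -0.39 ± 0.10 for Klf9 and -0.39 ± 0.56 for Fkbp5. It was -0.22 ± 0.13 for Errfi1, -0.17 ± 0.11 for Pdk4 and 0.19 ± 0.16 for Lcn2. The median of all genes lay at 0.00 in PDGFRa+, -0.01 in satellite and -0.01 in CD31+ or CD45+ cells. With the deposited values as scaled by the authors it lay at -0.17, -0.10 and -0.05, which moved the shares to 27.8% lower and 8.94% higher in all 3, with the same 6 genes lower. Across all genes limma's age term called 0 at an adjusted p under 0.05 (0% of the genes), while 2026 had an unadjusted p under 0.05.

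**Figure D2:**
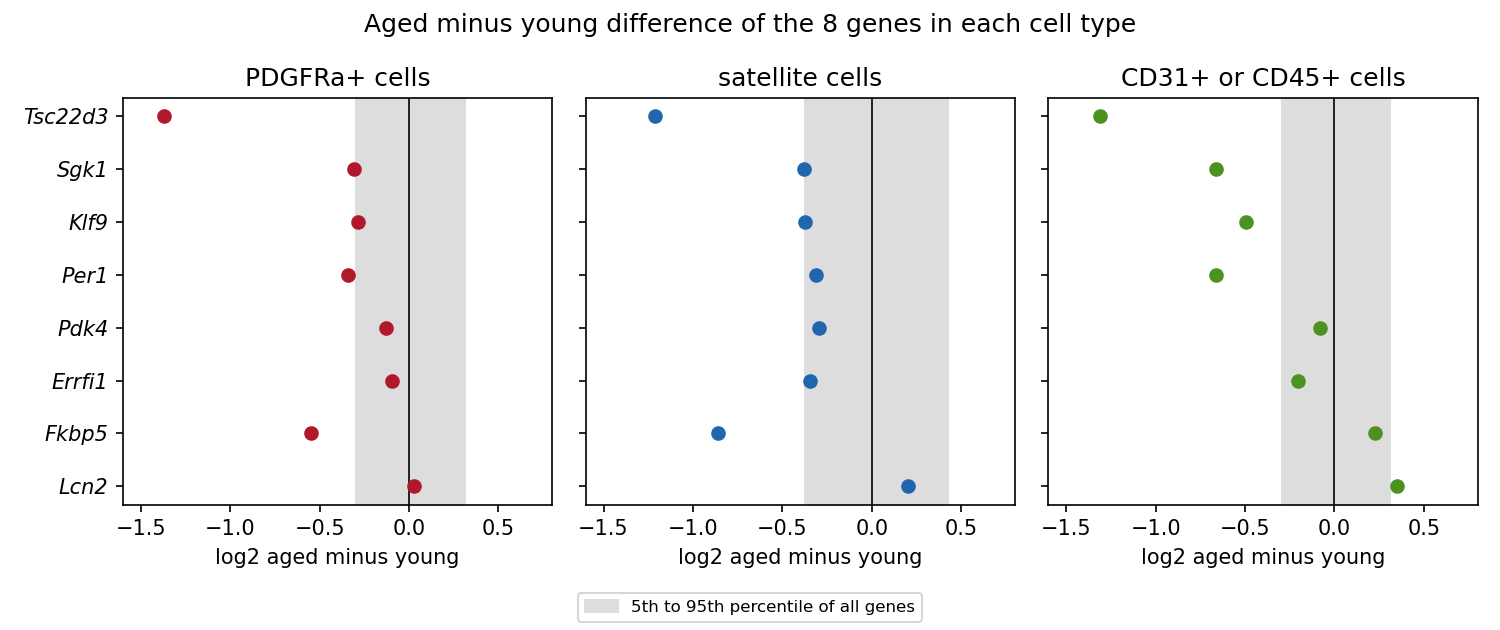
Log2 aged minus young difference of the 8 genes, 1 panel per cell type, with the grey band from the 5th to the 95th percentile of all genes. Tsc22d3 lay at -1.37, -1.21 and -1.31, far below the band, and in CD31+ or CD45+ cells Sgk1 and Per1 (both -0.66) were among the other genes below the band.

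Between cell types the 8 genes split. Sgk1, Klf9, Per1, Pdk4 and Errfi1 were lower in PDGFRa+ than in satellite cells by at least 2-fold at an adjusted p under 0.05, which is the rule for a call (5 of 8, against 7.29% of all genes). Errfi1 had a log2 difference of -1.97 ± 0.08 (SE, adjusted p = 0.00502 by limma), with -1.84 between the aged and -2.09 between the young arrays. For Pdk4 it was -1.77 ± 0.07 (adjusted p = 0.00505 by limma), for Per1 -1.61 ± 0.11 (0.00856), for Klf9 -1.27 ± 0.07 (0.00647) and for Sgk1 -1.17 ± 0.11 (0.0123). In each of these genes the aged and the young arrays differed in the same direction.

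Tsc22d3 ran the other way, 0.74 ± 0.06 higher in PDGFRa+ than in satellite cells (adjusted p = 0.00929 by limma), which is under 2-fold. Lcn2 was also higher, by 0.52 ± 0.09 (adjusted p = 0.0375), and Fkbp5 had a difference of -0.11 ± 0.30 (adjusted p = 0.865). The calls depended on both PDGFRa+ arrays. Without the young PDGFRa+ array no gene of the 8 was called (0 of all genes), and without the aged one 1 of the 8 (379 of all genes). The differences of the 5 genes without the young array ran from -1.05 for Sgk1 to -1.91 for Errfi1, with adjusted p-values of 0.0635 to 0.0848 by limma. With the local background none of the 5 was called. With the scanner set as a block Sgk1 had an adjusted p of 0.0561, and over all alternatives its adjusted p ran from 0.00317 to 0.11. Within 1 scanner set, between the young arrays, the differences of the 5 called genes were -1.21 to -2.09.

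Satellite cells also stood above CD31+ or CD45+ cells for 4 of the same genes, called against a background of 11.7%. Summed myofibre markers, given below, were also higher on the satellite arrays, and their part in these calls was not tested. Errfi1 was higher by 2.44 ± 0.08 (SE, adjusted p = 0.00142 by limma) and Pdk4 by 2.08 ± 0.07 (0.00153). Klf9 was higher by 1.31 ± 0.07 (adjusted p = 0.00258) and Per1 by 1.20 ± 0.11 (0.00711). Between the aged arrays, which share a scanner set, these differences were 2.37 for Errfi1, 1.97 for Pdk4, 1.37 for Klf9 and 1.38 for Per1. With median centring Per1 was higher by 0.91, under 2-fold. With the local background none of the 4 was called, and Per1 was higher by 0.09 (adjusted p = 0.977 by limma).

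Lcn2, Tsc22d3 and Sgk1 had lower means in satellite than in CD31+ or CD45+ cells. Lcn2 differed by -0.98 ± 0.09 (adjusted p = 0.00777 by limma), just under 2-fold, and passed 2-fold with the deposited values (-1.71), an offset of 10 (-1.44), no background correction (-1.32) and median centring (-1.10). It was -0.72 (adjusted p = 0.088 by limma) with the local background and -0.85 without the aged CD31+ or CD45+ array, and its adjusted p was 0.0502 with the scanner set as a block. Tsc22d3 differed by -0.45 ± 0.06 (adjusted p = 0.0126) and Sgk1 by -0.38 ± 0.11 (0.0735). Fkbp5 had 0.66 ± 0.30 (adjusted p = 0.193), with 0.12 between the aged and 1.20 between the young arrays.

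Between PDGFRa+ and CD31+ or CD45+ cells 1 gene of the 8 was called, against 10.1% of all genes. Sgk1 was lower in PDGFRa+ cells by -1.55 ± 0.11 (SE, adjusted p = 0.00497 by limma), with an adjusted p of 0.104 once the scanner set was a block and 0.0711 with the local background. No pair of arrays of these cell types shares a scanner set. Errfi1 was higher by 0.47 ± 0.08 (adjusted p = 0.0259), Tsc22d3 by 0.30 ± 0.06 (0.0344), and Lcn2 was lower by -0.46 ± 0.09 (0.0428), all under 2-fold. With the scanner set as a block the adjusted p by limma was 0.294 for Errfi1, 0.145 for Tsc22d3 and 0.375 for Lcn2. For Tsc22d3 the sign turned with the local background (-0.08). Per1 had -0.40 (0.0797), Pdk4 0.30 (0.0554), Klf9 0.04 (0.74) and Fkbp5 0.55 (0.283).

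**Figure D3:**
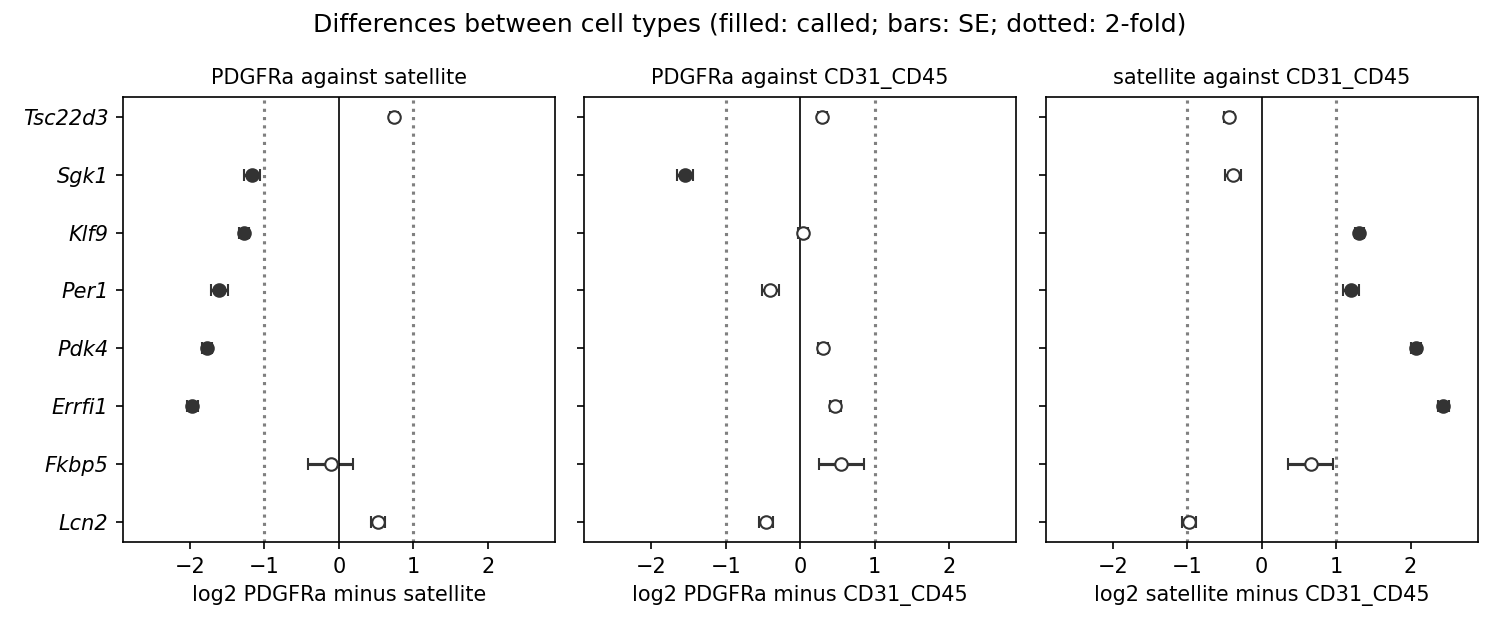
Log2 difference between cell types for the 8 genes, with the SE as a bar, filled points for calls (adjusted p under 0.05 and at least 2-fold) and dotted lines at 2-fold. Klf9, Per1, Pdk4 and Errfi1 were called higher in satellite cells against both other cell types, while Sgk1 was called lower in PDGFRa+ cells against both.

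The sort markers followed the labels. Pdgfra had 4149.0 in aged and 5700.4 in young PDGFRa+ cells and at most 60.6 elsewhere, and Pax7 had 1361.6 in aged and 1055.0 in young satellite cells and was not above background in PDGFRa+ cells. Pecam1 had 2450.7 in aged and 2464.8 in young CD31+ or CD45+ cells, and Ptprc, which encodes CD45, had 414.6 in aged and 251.7 in young. Mesenchymal markers in PDGFRa+ cells summed to 68175.2 in aged and 84304.1 in young, with 1 of 9 higher in aged. Satellite markers in satellite cells summed to 16955.1 in aged and 22578.7 in young, with 4 of 10 higher. Endothelial markers in CD31+ or CD45+ cells summed to 44269.8 in aged and 52262.7 in young, with 1 of 10 higher. Markers of other cell types differed with age as well. In satellite cells all 12 myofibre markers were higher in aged, with a summed intensity of 6345.5 in aged and 3415.8 in young mice. That sum was 223.9 in aged and 447.2 in young PDGFRa+ cells, and 852.9 in aged and 1128.7 in young CD31+ or CD45+ cells. The part of myofibre RNA in the higher satellite values of Klf9, Per1, Pdk4 and Errfi1 was not tested. Also in satellite cells, 9 mesenchymal markers summed to 8452.7 in aged and 6128.9 in young. The 10 macrophage markers summed to 2153.5 in aged and 360.5 in young PDGFRa+ cells (8 of the 10 higher in aged). They summed to 1139.5 in aged and 255.3 in young satellite cells (all 10 higher). In CD31+ or CD45+ cells they summed to 29297.8 in aged and 25242.2 in young (6 of the 10 higher). In PDGFRa+ cells the erythroid markers summed to 1290.1 in aged and 3597.3 in young. In CD31+ or CD45+ cells all 10 pan-hematopoietic markers were higher in aged, with sums of 5181.2 in aged and 3790.0 in young. The part of these markers in the age differences was not tested.

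Most other glucocorticoid-induced genes were not lower in each aged array. Of 34 other glucocorticoid-induced genes 33 were measured, of which 5 (15.2%) were lower and 4 (12.1%) higher in all 3 aged arrays, near the 20.7% and 14.3% of all genes. Their median differences were 0.01, -0.04 and -0.01. Ddit4, an inhibitor of mTOR that also answers to hypoxia and stress, had the largest mean difference of those 5, with 182.4 in aged and 498.3 in young PDGFRa+ cells, 283.7 in aged and 1078.3 in young satellite cells, and 824.3 in aged and 1198.6 in young CD31+ or CD45+ cells. Its mean difference was -1.11 ± 0.29 (SE of limma's age term, adjusted p = 0.386).

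The other named genes lower in each aged array were Arrdc2 (mean -0.63), the sestrin gene Sesn1 (-0.30) and Dusp1 (-0.22), a phosphatase that switches off MAP kinases. For Arrdc2 the satellite pair carried most of it, with 147.0 in aged and 490.8 in young. After normalisation the genes higher in each aged array were Anxa1 (mean 0.68), whose product annexin A1 mediates anti-inflammatory action of the hormone, the transglutaminase gene Tgm2 (0.41), Gadd45g (0.25) and Angptl4 (0.13). By deposited intensity Anxa1, Tgm2 and Angptl4 were lower in aged PDGFRa+ cells and Gadd45g in aged CD31+ or CD45+ cells, so that sign turned with the scaling. Anxa1 was nearly level in PDGFRa+ cells, with 6005.1 in aged and 6042.4 in young, and far apart in satellite cells, with 2865.0 in aged and 773.9 in young. All of these age terms had an adjusted p of 0.364 or more by limma.

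Between cell types these other induced genes had no common direction. Against satellite cells, PDGFRa+ cells had 1 of 33 called higher (Gadd45g, 1.21) and 4 lower, beside 7.29% of all genes called. Slc10a6 (-2.56), Irs2 (-1.74) and Cebpb (-1.54) were the lowest of the 4. Against CD31+ or CD45+ cells, PDGFRa+ cells had 5 higher, led by the metallothionein genes Mt2 (3.92) and Mt1 (2.37) and by Anxa1 (2.76), and, beside 10.1% of all genes called, 7 lower, led by Tgm2 (-3.36), Rgs2 (-2.17) and the macrophage receptor gene Cd163 (-2.01). Satellite cells had 7 higher and 9 lower than CD31+ or CD45+ cells, beside 11.7% of all genes called, with Mt2 (4.30) and the insulin receptor substrate gene Irs2 (3.13) at one end and Tgm2 (-4.21) and Mertk (-2.14) at the other.

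The receptor gene lay above the median probe of every array, at both ages. Nr3c1, which encodes it, had 56.7 in aged and 69.9 in young PDGFRa+ cells, 44.0 in aged and 55.3 in young satellite cells, and 65.7 in aged and 80.5 in young CD31+ or CD45+ cells. Each aged array lay below its partner, with a mean difference of -0.15 ± 0.04 (SE of limma's age term, adjusted p = 0.393). Of the 17 genes for the receptor, steroid supply and chaperones, 14 were measured. In each aged array 3 were lower (21.4%) and 2 higher (14.3%), near the 20.7% and 14.3% of all genes. The 3 were Nr3c1, the co-activator gene Med1 (-0.17) and the co-chaperone gene Fkbp4 (-0.22). The 2 were Hsd11b1 (0.14) and the co-chaperone gene Stip1 (0.29).

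Hsd11b1, whose enzyme regenerates active hormone inside the cell, separated the cell types. Its intensity was 1278.5 in aged and 1272.9 in young PDGFRa+ cells and 1461.1 in aged and 1450.4 in young satellite cells, but 40.6 in aged and 30.2 in young CD31+ or CD45+ cells. It was higher in PDGFRa+ cells by 4.14 ± 0.05 (adjusted p = 0.000862 by limma) and in satellite cells by 4.45 ± 0.05 (0.00072). Abcb1a, an efflux pump gene that exports steroids among other substrates, ran the other way, by -2.04 (adjusted p = 0.00216) in PDGFRa+ cells, and was called lower in satellite cells too. The co-activator gene Ncoa1 was lower in PDGFRa+ than in satellite cells by -1.26 (adjusted p = 0.00554 by limma).

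Among 13 measured paralogs of the 8 genes, 3 were lower and 5 higher in each aged array after normalisation (23.1% and 38.5%, against 20.7% and 14.3% of all genes). The measured relatives of Tsc22d3 did not all lie the same way. Tsc22d2 and Tsc22d4 had mean differences of 0.27 and 0.17, though by deposited intensity both were lower in aged PDGFRa+ cells, and Tsc22d4 in aged satellite cells as well. Tsc22d1 had 766.7 in aged and 1825.7 in young PDGFRa+ cells but 522.4 in aged and 276.5 in young satellite cells. Klf13, a relative of Klf9, was lower in each aged array with a mean of -0.69, and Per3, a relative of Per1, with a mean of -0.49. Fkbp8 and Pdk3 had means of 0.51 and 0.25, with Fkbp8 in satellite cells at 160.6 in aged and 161.4 in young. By the age term none of these passed (adjusted p of 0.324 or more by limma). Between cell types Tsc22d2 was called lower in PDGFRa+ than in satellite cells (-1.31), and Sgk3 (-1.11) and Tsc22d1 (-2.87) lower in satellite than in CD31+ or CD45+ cells.

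Per1 belongs to the clock as well as to the hormone response. Of 16 measured genes of the clock and its output, 4 (25%, against 20.7% of all genes) were lower in each aged array, which were Tef and Dbp (both -0.58), Per3 (-0.49) and Rora (-0.12), and 2 (12.5%, against 14.3%) were higher after normalisation (Arntl, the gene of BMAL1, by 0.30 and Nr1d1 by 0.04). By deposited intensity Nr1d1 was lower in aged PDGFRa+ cells, with 142.5 in aged and 158.9 in young, and in aged satellite cells. Dbp, an output gene driven through E-boxes, had 396.8 in aged and 620.0 in young PDGFRa+ cells, 399.2 in aged and 695.5 in young satellite cells, and 215.4 in aged and 357.7 in young CD31+ or CD45+ cells. Nr1d1 was lower in PDGFRa+ than in satellite cells by -1.52 (adjusted p = 0.00392 by limma), in the same direction as Per1.

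Several of the 8 genes also respond to handling, so genes induced early by stress and tissue dissociation were set beside them. Of 19 measured immediate-early genes, 10 (52.6%, against 20.7% of all genes) were lower in each aged array and 0 were higher (against 14.3%). With the local background 4 of the 19 were lower in each, against 24% of all genes, so the excess was not seen there. With the blank spots as background the medians were -0.09, -0.33 and -0.24. The part of the immediate-early genes in the lower values of Tsc22d3, Sgk1, Klf9, Per1 and Errfi1 was not tested. Jun, a subunit of AP-1, had 5339.2 in aged and 9009.1 in young PDGFRa+ cells, 12546.9 in aged and 22262.8 in young satellite cells, and 5576.6 in aged and 7953.4 in young CD31+ or CD45+ cells. Its mean difference was -0.59, beside -0.61 for Btg2, -0.57 for Egr2 and -0.52 for Ier2.

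Some immediate-early genes also differed between cell types. Against satellite cells, PDGFRa+ cells had 5 of the 19 called lower, beside 7.29% of all genes called, among them Btg2 (-1.93), Egr2 (-1.85) and Atf3 (-1.41), and 1 higher (Klf2, 1.05). Satellite cells had 8 of the 19 called higher than CD31+ or CD45+ cells, beside 11.7% of all genes called, led by Myc (2.79), Egr2 (2.46) and Egr1 (2.34), and 2 lower, Klf2 (-2.89) and Klf6 (-1.12). Their part in the higher satellite values of Klf9, Per1, Pdk4 and Errfi1 was not tested.

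Inflammatory genes listed as repressed by glucocorticoids were higher in aged more often than lower. Of 18, 9 (50%, against 14.3% of all genes) were higher in each aged array and 1 (5.56%, against 20.7%) lower, and the medians were 0.22, 0.12 and 0.10. Some of the 9 were near the floor, since Mmp9 was not above background in PDGFRa+ cells and Tnf not in young satellite cells. By deposited intensity Il1b was lower in aged CD31+ or CD45+ cells, with 2613.8 in aged and 2741.4 in young. Saa3, an acute phase gene, had 29.9 in aged and 5.6 in young PDGFRa+ cells and 110.6 in aged and 22.5 in young CD31+ or CD45+ cells. In satellite cells it had 18.9 in aged and was not above background in young. Its mean difference was 0.90 ± 0.18 (SE of limma's age term, adjusted p = 0.339). The chemokine genes Ccl2 (0.65) and Ccl7 (0.57) and the metalloproteinase gene Mmp3 (0.64) were also higher in each aged array, while the neutrophil chemokine gene Cxcl1 was lower (-0.69).

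With median centring 6 of the 18 inflammatory genes were higher in each aged array, against 10% of all genes. The summed macrophage markers, given above, were also higher in the aged array of all 3 cell types. In CD31+ or CD45+ cells 6 of the 10 markers were higher. The part of the macrophage markers in the inflammatory values was not tested. Between cell types Il1b differed most, by -5.81 in PDGFRa+ and -5.80 in satellite cells against CD31+ or CD45+ cells, with Cxcl2 next (-5.03 and -4.86). Ptgs2 (2.54) and Ccl2 (2.59) were higher in PDGFRa+ than in satellite cells, and Vcam1 was lower (-3.62).

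**Figure D4:**
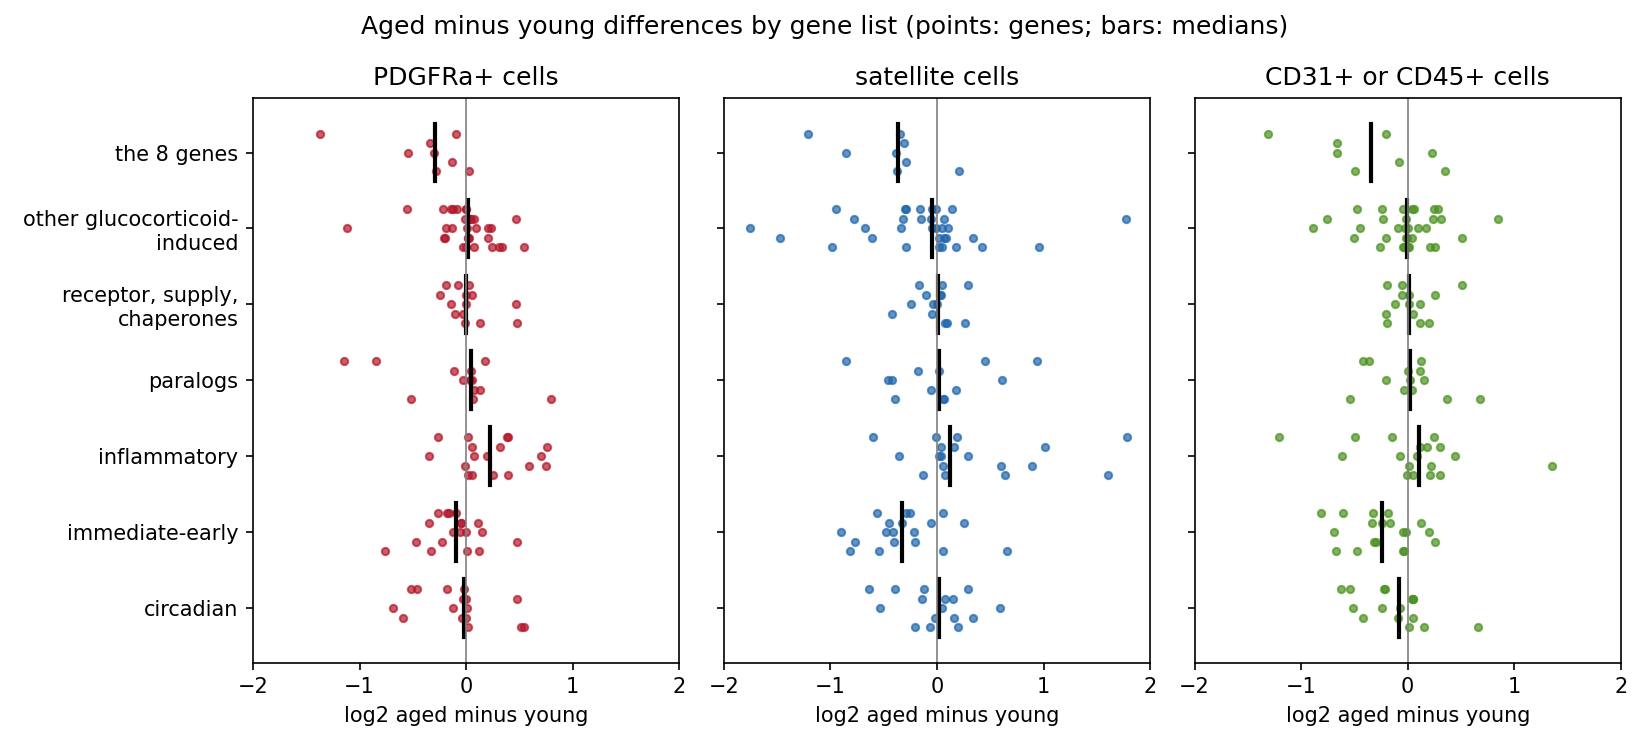
Log2 aged minus young differences of the 8 genes and of the genes in 6 lists, 1 panel per cell type, each point a gene and each bar the median of a list. The medians of the other glucocorticoid-induced genes sit at 0.01, -0.04 and -0.01, those of the immediate-early genes at -0.09, -0.33 and -0.24 and those of the inflammatory genes at 0.22, 0.12 and 0.10.

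The genes whose level across the 6 arrays was most like that of Tsc22d3 were Mrpl43 (Pearson's r = 0.915), Ppic (0.834), Auh (0.815), Rin2 (0.815) and Nrep (0.807), out of 4030 genes above background on all 6 arrays with a range of at least 1 on the log2 scale. None of the other 7 glucocorticoid-induced genes was among them. Mrpl43, a mitochondrial ribosome gene, had 298.7 in aged and 520.0 in young PDGFRa+ cells, 202.2 in aged and 291.0 in young satellite cells, and 297.4 in aged and 420.1 in young CD31+ or CD45+ cells. Each of the 5 was lower in aged in all 3 cell types. Nothing is read from that, because they were chosen for likeness to Tsc22d3, whose aged arrays all lay below its young ones. Of the 5, Nrep came closest to Tsc22d3 in size, with log2 differences of -1.83, -1.04 and -0.98. The points share arrays and scaling, and likeness of this kind follows from 6 values only.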

How the data were processed

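The authors deposited 1 scanner file per array and a table of linear intensity for all 6 arrays. Per the file headers, the scanner files hold the median intensity of 27456 spots, merged from 3 gains. Each value of the table equalled, within 0.1, the spot median minus the trimmed mean of 2736 blank spots, times a factor per array, and 88.4% to 92.3% of 23473 probes were above background. The number of arrays limits the precision. The genome build behind the probes is not given in the sources used here.

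Spot medians were corrected with limma 3.58.1 in R 4.3.3 (normexp, blank trimmed mean, 5% from each side, offset 50), log2 transformed and quantile normalised. Genes were named from the platform annotation, with current symbols, and 20690 probes had 1 name. The brightest probe per symbol was taken, and genes above background on at least 2 arrays were tested. A limma model of cell type and age was fitted to all 6 arrays, with 2 residual and 1.50 prior degrees of freedom, so age differences not shared by the cell types form its error. P-values are two-sided, with Benjamini-Hochberg adjustment over all genes, and measure only the spread between single arrays of pooled cells. The fit was tested on simulated data. Alternatives were other backgrounds, offsets, scalings and filters, the deposited table, the scanner set as a block and leaving out each array.

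The 8 genes, the 6 lists and the rule for naming genes (list genes called between cell types, at most 3 each way, or lower or higher in all aged arrays, at most 4 each way) were chosen with earlier results of these data known. Zbtb16 was listed but not measured.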

Additional observations from a re-analysis of the deposited data

Results flagged for a closer look

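Fkbp5 differed between aged and young arrays in opposite directions in different cell types. Its log2 aged minus young difference was lower in PDGFRa+ than in CD31+ or CD45+ cells by -0.77, from -0.55 in PDGFRa+ and 0.23 in CD31+ or CD45+ cells. It was lower in satellite than in CD31+ or CD45+ cells by -1.08, from -0.86 in satellite cells. Each value rests on 1 aged and 1 young array and on a dim probe, with an intensity of 5.7 on the young CD31+ or CD45+ array, and the difference was not tested. With the local background all 3 cell types had the same sign, with 0.0189 in PDGFRa+, 0.2434 in satellite and 0.0984 in CD31+ or CD45+ cells.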

How the results depend on the processing

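No paired analysis was possible by replicate number because each cell type and age has 1 array. The cell type term of the model already sets each aged array beside its young partner. With the local background, the mean difference of Tsc22d3 was -0.18 (0.0456 in PDGFRa+ and 0.0359 in satellite cells). In that setting 1 of the 8 genes (Pdk4) and 4 of 19 immediate-early genes were lower in all aged arrays, against 24% of all genes. There 0 of the 8 genes were called in any cell type comparison. The genes called were 68 for PDGFRa+ against satellite, 289 for PDGFRa+ against CD31+ or CD45+, and 342 for satellite against CD31+ or CD45+ cells. Median centring gave -1.21 for Tsc22d3. In the same order of comparisons, an offset of 10 called 2213, 2945 and 3382 genes, and the deposited values 3150, 4004 and 4714, against 1339, 1857 and 2147. A block for the scanner set left 835 genes and 0 of the 8 for PDGFRa+ against CD31+ or CD45+ cells. Leaving out single arrays, with the lone array of a cell type assumed to vary like the others, gave 0 to 1293 genes and 0 to 5 of the 8 for PDGFRa+ against satellite, and 1176 to 1852 genes for PDGFRa+ against CD31+ or CD45+ cells. Apart from the local background, the settings that changed background, offset, scaling or filter kept the same 6 genes lower in all aged arrays.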
